A study of Mus musculus with 12 samples.

Results

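The cytosolic ribosomal protein genes were examined in adult mouse liver for H3K9ac, the acetylation of histone H3 on lysine 9 that accompanies active promoters. Members were the protein-coding genes of the GENCODE M21 annotation (GRCm38, the mm10 build) whose symbol was Rpl or Rps followed by a number, with or without a letter suffix, together with Rplp0, Rplp1, Rplp2 and Rpsa. Symbols containing -ps and the Rps6k kinases were left out. This gave 82 genes of 21911, of which 50 encode large subunit proteins and 32 small subunit proteins. Deposited H3K9ac peak lists covered 2 livers of C57BL/6J mice (B6), 2 livers of MSM/Ms mice (MSM), 1 liver of an F1 hybrid whose mother was B6 (F1 BM, MSM father) and 1 liver of the reciprocal hybrid whose mother was MSM (F1 MB, B6 father). All mice were adult and none carried a treatment in the labels. The reference genome is that of B6, whereas MSM was bred from wild mice of Japan. Each list came from 1 library, so the F1 values carry no error.

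Ribosomal proteins assemble with ribosomal RNA into the small subunit, which reads the mRNA, and the large subunit, which joins amino acids. Their genes are transcribed in nearly every cell, and in liver they support the synthesis of plasma proteins. Most of their mRNAs begin with a 5′ terminal oligopyrimidine (TOP) tract, a cytidine followed by an unbroken run of pyrimidines, through which their translation responds to growth signals. H3K9ac is placed on nucleosomes flanking active starts, so that a promoter in use commonly carries peaks on either side of a gap at the start.

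For each gene, a peak counted when at least 1 bp of it lay within 2 kb of the transcription start site (TSS) that the gene record gives. The covered length was the number of bases of that window under peaks, and the strength was the percentile, among all peaks of the same list, of the fold enrichment of the strongest peak in the window. A percentile was used because fold enrichments are not comparable between lists. It is a rank among the peaks that its own list holds, so a difference between lists of unequal length is one of rank and not of the amount of the mark. The lists held from 11619 (B6 replicate 2) to 22968 peaks (B6 replicate 1) and covered from 6.28 to 16.0 Mb, so the replicates of B6 were the extremes and the MSM replicates, with 17310 and 17584 peaks, lay between them. The lists carry no read counts, library depth was not used here, and a missing peak cannot be told from a peak too weak for its library. Of 7 hepatocyte markers, 6 had a peak in all 6 lists (Alb, Apoa1, Ttr, Fgb, Tat and Cps1) and Hnf4a had none at its gene-record start. None of the 3 Kupffer cell, 3 endothelial, 2 stellate cell or 2 leukocyte markers had one in all 6. In whole liver, fewer cells carrying the mark and less of the mark per cell cannot be told apart.

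Some of the starts with long pyrimidine tracts and the starts of the 4 members that had no peak are shown first, because the tract is the sequence feature by which these genes are known. Each line gives 15 bases before and 15 bases from the start of the principal transcript, 5′ to 3′ on the gene's strand in GRCm38, with the longest pyrimidine run within 5 bases of the start in capitals.
Rps2 (chr17:24720095-24720124, plus strand): ccgcggcgCCTCCCTCTTCTTCTTCTTCgg
Rpl34 (chr3:130730323-130730352, minus strand): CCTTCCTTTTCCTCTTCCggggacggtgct
Rpl29 (chr9:106429524-106429553, plus strand): gggCCTTTCTCTTTCTCTTCCggtctccgg
Rpl32 (chr6:115808733-115808762, minus strand): gcgccgccgccgCCTCTTCCTTCTTCCTCg
Rpl30 (chr15:34443208-34443237, minus strand): ttgtgggagCTCCTTCCTTTCTCgctcccc
Rpl4 (chr9:64173360-64173389, plus strand): agtgacaagTCTTTCCTTTTCCTgtgggag
Rpl3l (chr17:24727805-24727834, plus strand): gcagctgagtgTTCTagctctgtcatttga
Rpl10l (chr12:66284387-66284416, minus strand): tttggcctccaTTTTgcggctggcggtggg
Rpl39l (chr16:10170213-10170242, plus strand): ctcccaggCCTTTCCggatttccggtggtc
Rps27rt (chr9:114982725-114982754, minus strand): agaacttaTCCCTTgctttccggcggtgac
The first 6, picked for their long tracts, carried runs of 14 to 20 pyrimidines. Over all 82 members the median longest run within 5 bases of the start was 4 bases. In the paralogs Rpl3l, Rpl10l, Rpl39l and Rps27rt the run was 4, 4, 7 and 6 bases long. Rps27rt had a second run of 6 pyrimidines, not in capitals, that began with a C at the start itself, as a TOP tract does. At Rpl34 and Rpl29 the start base was a T, so run length alone does not mark a TOP tract.

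Most ribosomal protein genes had an H3K9ac peak within 2 kb of their start in every liver. In 20 of the 82 members the window also held another protein-coding start, and 9 members had a start in the opposite direction within 1 kb. A peak in such a window cannot be assigned to the member alone. A peak was present in all 6 lists at 57 of 82 members (69.5%), against 24.4% of all protein-coding genes, 42 of 78 mitochondrial ribosomal protein genes (53.8%) and 34 of 68 translation factor genes (50%). Small subunit genes had a peak in all 6 lists at 26 of 32 (81.2%) and large subunit genes at 31 of 50 (62%), a difference that was not tested. At the starts of the principal transcripts the counts were closer, with 24 of 32 (75%) and 32 of 50 (64%). Of the members with no peak in any list, 3 were large subunit genes and 1 was a small subunit gene. By list, 78 members had a peak in B6 replicate 1, 62 in B6 replicate 2, 69 in MSM replicate 1, 73 in MSM replicate 2, 76 in F1 BM and 72 in F1 MB. These counts followed the order of the numbers of peaks in the lists except that F1 MB, with 13235 peaks, stood above MSM replicate 1. With the peaks of every list limited to the number in the shortest list, 49 members (59.8%) still had a peak in all 6, against 19.7% of all genes. With the lists cut to the same covered length, the strongest peaks first, 16 members (19.5%) did, against 11.9% of all genes, and with a −log10 q of at least 10 only 12 members (14.6%) did, against 10.8% of all genes.

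**Figure D1:**
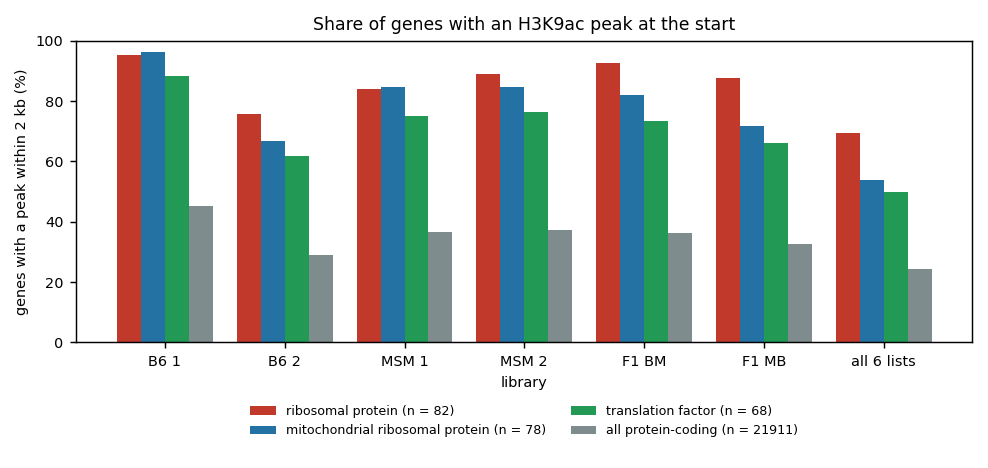
Share of genes (%) with an H3K9ac peak within 2 kb of the gene-record start, by library and in all 6 lists (x axis), for ribosomal protein genes, mitochondrial ribosomal protein genes, translation factor genes and all protein-coding genes. Bars are shares of the genes given in the legend, with no error because each library is 1 mouse. Ribosomal protein genes stood at 69.5% in all 6 lists and all protein-coding genes at 24.4%.

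The 4 members listed with no peak in any library were all paralogs. Rpl3l is known as the striated muscle form of Rpl3, Rpl10l and Rpl39l are known for their testis expression, and Rps27rt is a retrogene of Rps27. Rpl3l lies on chromosome 17 beside Rps2, with gene starts 9704 bp apart. At Rps2, which encodes a small subunit protein near the mRNA entry of the ribosome, the principal start lies 1994 bp downstream of the gene-record start. Within 2 kb of that start 1507 and 524 bp were covered in the B6 replicates, 1175 and 974 bp in the MSM replicates, 1085 bp in F1 BM and 811 bp in F1 MB, and at its neighbor Rpl3l the covered length was 0 in all 6. The skeletal muscle markers Ckm and Myh4 and the testis markers Prm1 and Tnp1 likewise had no peak in any list. The other 2 paralogs were not of this kind. Rps27l, a gene known as a p53 target, was covered over 1555 and 816 bp in B6, 1134 and 1227 bp in MSM, 1459 bp in F1 BM and 1132 bp in F1 MB. Rpl36al was covered over 1910 and 343 bp, 1273 and 1480 bp, 1013 bp and 982 bp in the same order, and Mgat2 starts within 1 kb of it in the opposite direction. Without these 6 paralogs, all 76 remaining members had a peak in B6 replicate 1, and 55 (72.4%) had one in all 6 lists.

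**Figure D2:**
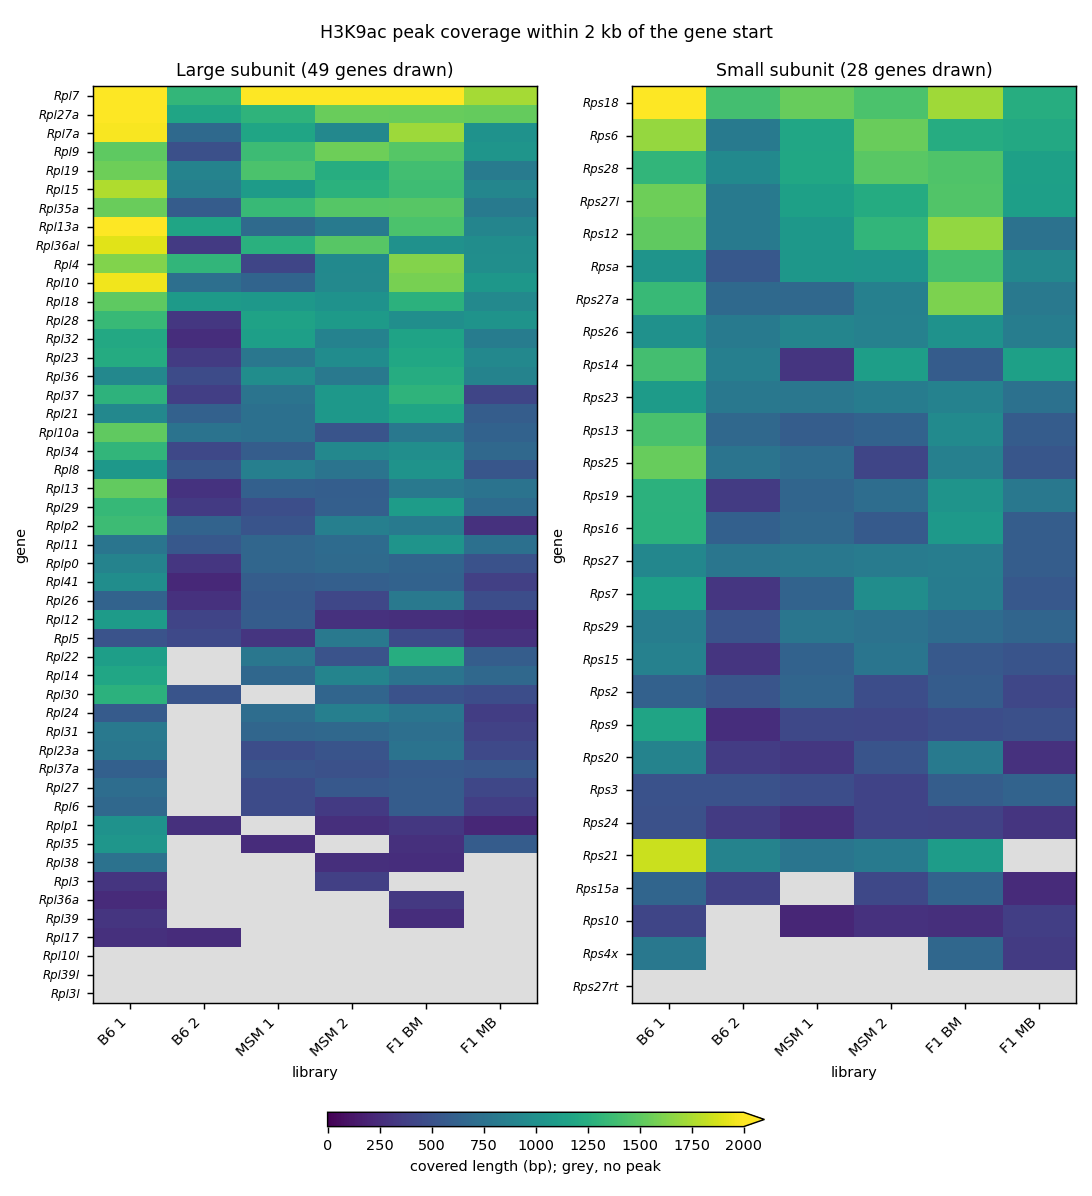
Covered length in bp (color) within 2 kb of the gene-record start for ribosomal protein genes (rows, large subunit left and small subunit right) in each library (columns). Grey cells had no peak. Some members are not drawn. Genes are ordered by the number of lists with a peak and then by mean covered length. Grey cells cluster in B6 replicate 2, and Rpl10l, Rpl39l, Rpl3l and Rps27rt are grey throughout.

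The remaining 21 members had a peak in 1 to 5 lists, and the lists they lacked were not spread evenly. A total of 10 members lacked a peak in B6 replicate 2 alone (among them Rpl6, Rpl14, Rpl22, Rpl23a, Rpl24, Rpl27, Rpl31, Rpl37a and Rps10), and that library had the fewest peaks. They made up 47.6% of the 21, whereas of 4913 protein-coding genes with a peak in 1 to 5 lists 16.1% lacked B6 replicate 2 alone. Rpl14 was covered over 1183 bp in B6 replicate 1, 669 and 905 bp in MSM, 773 bp in F1 BM and 679 bp in F1 MB, and Rpl22 over 1123, 796, 510, 1249 and 588 bp in the same 5 lists. Rpl24, with 573, 713, 861, 778 and 360 bp, was likewise covered in each. Rps10 was covered over less, with 416, 216, 282, 273 and 372 bp. Its peaks lay at the downstream edge of the window, from 1585 to 2211 bp after the start in B6 replicate 1 and from 1728 to 2178 bp in F1 BM. The 2 kb limit thus cut them short in these lists. The nearest start of Rps10 in the RefSeq annotation lies 1425 bp from the start used, so its short coverage depends on the choice of start.

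Another 3 members lacked a peak in MSM replicate 1 alone. Rplp1, one of the acidic stalk proteins that recruit translation factors, was covered over 1020 and 280 bp in B6, 0 and 270 bp in MSM, 326 bp in F1 BM and 222 bp in F1 MB. Rpl30 was covered over 1289 and 518 bp, 0 and 650 bp, 503 bp and 472 bp, and Rps15a over 654 and 386 bp, 0 and 431 bp, 640 bp and 249 bp. In each of the 3 the second MSM library had a peak, so the MSM replicates disagreed. Rps21 lacked a peak in F1 MB alone, with 1838 and 896 bp in B6, 776 and 827 bp in MSM and 1105 bp in F1 BM. Rpl35 lacked one in B6 replicate 2 and MSM replicate 2, and Rpl38, whose loss is known to alter the translation of Hox mRNAs, lacked one in B6 replicate 2, MSM replicate 1 and F1 MB.

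Of the 4 members on the X chromosome, 3 were among those with the fewest peaks. Rps4x, a small subunit gene that escapes X inactivation in human but not in mouse, was covered over 804 bp in B6 replicate 1, 670 bp in F1 BM and 351 bp in F1 MB and had no peak in B6 replicate 2 or either MSM list. Rpl39 had peaks only in B6 replicate 1 (309 bp) and F1 BM (263 bp), and Rpl36a only in the same libraries (244 and 333 bp). Rpl10, in contrast, had a peak in all 6 lists, with 1956 and 731 bp in B6, 643 and 944 bp in MSM, 1589 bp in F1 BM and 1060 bp in F1 MB. Across all genes, 23.5% of X-linked and 46.6% of autosomal protein-coding genes had a peak in B6 replicate 1, 7.81% and 30.0% in B6 replicate 2, 15.4% and 37.8% in MSM replicate 1, 17.0% and 38.4% in MSM replicate 2, 16.8% and 37.6% in F1 BM and 11.4% and 33.8% in F1 MB. X-linked members were therefore set in a chromosome with fewer peaks in every list, and the part of this in their missing peaks was not tested. The labels used here do not give the sex of the mice. On the Y chromosome the lists held 0 and 0 peaks in B6, 8 and 4 in MSM, 1 in F1 MB and 9 in F1 BM. The part of sex in the values of X-linked members was not tested.

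The choice of start mattered for a few members. The start of the principal transcript was the same as the gene-record start in 62 members and within 100 bp in 68, but it lay over 2000 bp away in Rpl3 (8462 bp), Rps14 (27498 bp), Rps24 (3593 bp) and Rpl18 (2614 bp). At principal starts 56 members had a peak in all 6 lists. Rps14 had a peak in all 6 lists at its gene-record start but none in MSM replicate 1 at the principal start. Rpl17, covered only in B6 at its gene-record start (280 and 254 bp), had peaks in all 6 lists at the principal start, with 1078 and 528 bp in B6, 801 and 366 bp in MSM, 800 bp in F1 BM and 711 bp in F1 MB. Rps24 went the other way. Its peaks in all 6 lists lay upstream of the gene-record start, where Polr3a starts in the opposite direction, and at the principal start only B6 replicate 1 (570 bp), MSM replicate 1 (250 bp) and MSM replicate 2 (765 bp) had one.

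Rpl3, a large subunit protein at the peptidyl transferase center, was the member for which the strains differed in having a peak at all at the principal start (chromosome 15, position 80083406, minus strand). There 1168 and 717 bp were covered in the B6 replicates, 0 and 0 bp in the MSM replicates, 1210 bp in F1 BM and 385 bp in F1 MB. Both B6 libraries and both hybrids had peaks and the MSM libraries none. In B6 replicate 1 the downstream peak ran from 69 to 630 bp after the start with a fold enrichment of 7.75 and a −log10 q of 30.5, and in B6 replicate 2 from 109 to 554 bp with a fold of 4.45 and a −log10 q of 10.4. Over the B6 replicates this gave 942.5 ± 319 bp, beside 0 bp for both MSM replicates (SD, n = 2 per strain, two-sided exact permutation p = 0.333, the smallest that 4 libraries allow). At principal starts a peak in both B6 lists and neither MSM list was found at 1 of 82 members, beside 0.822% of all genes, and at gene-record starts likewise at 1 member, Rpl17, beside 0.849%. The reverse pattern was found at no member at either start, beside 0.329% and 0.333% of all genes. These counts were chosen after the values were seen. Whether MSM reads failed to map at this start was not tested.

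**Figure D3:**
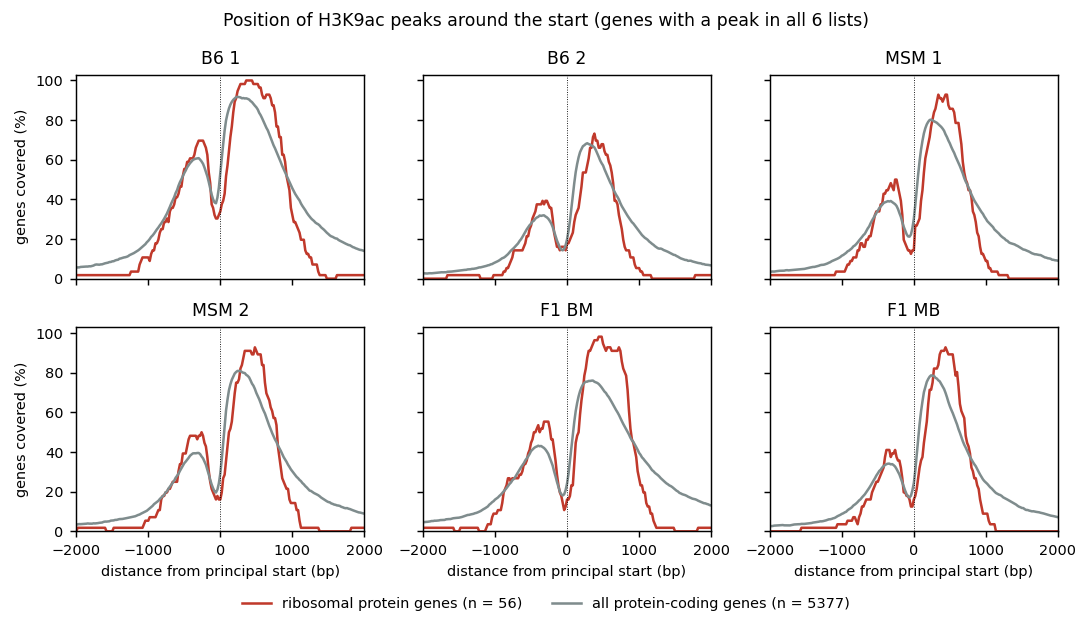
Share of genes (%, y axis) whose base at each distance from the principal start (x axis, bp, negative upstream) lay under an H3K9ac peak, in each of the 6 libraries. Red, the 56 ribosomal protein genes with a peak in all 6 lists; grey, the 5377 protein-coding genes with one. Both curves dip at the start. The red curve peaks between 340 and 480 bp downstream and is at 0% at 1500 bp.

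The peaks of ribosomal protein genes flanked the start and, as in other genes, lay mostly downstream of it. Among the 56 members with a peak in all 6 lists at the principal start, the start base itself was covered in 33.9% (B6 replicate 1), 17.9% (B6 replicate 2), 14.3% and 16.1% (MSM), 16.1% (F1 BM) and 16.1% (F1 MB). Shares over 5377 protein-coding genes were 53.3%, 19.8%, 30.2%, 29.2%, 24.1% and 24.3%, higher in each list. Coverage was most frequent 340 to 480 bp downstream, where 100% of members were covered in B6 replicate 1, 73.2% in B6 replicate 2, 92.9% in each MSM replicate, 98.2% in F1 BM and 92.9% in F1 MB. Upstream the highest share was 69.6%, 39.3%, 50%, 50%, 55.4% and 41.1% in the same order. More bases were covered downstream than upstream in 40 to 48 of the 56 members (71.4% to 85.7%), depending on the list, and in 74.1% to 77.7% of all genes with a peak in all 6 lists. The share was higher in members in 5 lists and lower in B6 replicate 2.

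Farther into the gene the coverage of these genes ended earlier than that of others. At 1500 bp downstream no member was covered in any of the 6 lists, whereas 22.5%, 11.9%, 15.2%, 14.8%, 21.1% and 11.8% of all genes with a peak in all 6 lists were. At 1000 bp downstream the shares were 32.1% of members and 45.6% of all genes in B6 replicate 1, 5.36% and 24.0% in B6 replicate 2, 8.93% and 30.2% in MSM replicate 1, 14.3% and 30.3% in MSM replicate 2, 26.8% and 39.6% in F1 BM and 8.93% and 24.6% in F1 MB. The typical member did not differ in this way, for the median distance from the start to the farthest downstream edge was 940.5, 646, 719.5, 793.5, 902 and 724 bp in members and 980, 666, 776, 782, 921 and 685 bp in all genes. It was the far tail that was thin. Ribosomal protein genes are short, with a median principal transcript of 2945 bp against 15429 bp in all genes. Among 660 other genes whose principal transcript was at most 5 kb, a comparison added after the data were seen, the edge lay beyond 1500 bp in 14.4% to 25.9% by list, and in members in 0 or 1 of 56. The 1 member was Rpl41, a gene for a very short peptide, in whose window Zc3h10 also starts.

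Mitochondrial ribosomal protein genes, whose products translate the mitochondrial genome, also had few far edges. Their edge lay beyond 1500 bp in 1 or 2 of 42 genes in each list, and the start base was covered in 61.9%, 28.6%, 40.5%, 33.3%, 28.6% and 23.8%, above the members in each list. A thin far tail was thus also seen in these genes.

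Rpl27a shows the pattern in a single gene. At Rpl27a (chr7:109519147-109522367, plus strand) B6 replicate 1 had peaks from -854 to -174 bp and from 7 to 1344 bp of the start (negative upstream), with fold enrichments of 8.11 and 13.1. In MSM replicate 1 the peaks ran from -553 to -191 bp and from 90 to 1025 bp, with folds of 5.22 and 9.08. In F1 MB they ran from -771 to -222 bp and from 48 to 1027 bp. All 6 lists had 1 peak on each side and none over the start. The 150 bases before that start, which lay in this gap in every list, are shown with each match to the motif letters searched in capitals, beside the same stretch of Rpsa and of Rpl39l.
Rpl27a (chr7:109518997-109519146, plus strand): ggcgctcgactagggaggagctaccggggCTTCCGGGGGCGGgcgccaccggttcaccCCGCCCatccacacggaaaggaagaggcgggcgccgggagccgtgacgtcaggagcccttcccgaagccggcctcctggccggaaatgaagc
Rpsa (chr9:120127539-120127688, plus strand): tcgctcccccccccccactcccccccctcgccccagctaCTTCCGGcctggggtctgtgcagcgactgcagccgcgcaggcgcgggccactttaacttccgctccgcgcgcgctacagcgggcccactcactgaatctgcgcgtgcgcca
Rpl39l (chr16:10170078-10170227, plus strand): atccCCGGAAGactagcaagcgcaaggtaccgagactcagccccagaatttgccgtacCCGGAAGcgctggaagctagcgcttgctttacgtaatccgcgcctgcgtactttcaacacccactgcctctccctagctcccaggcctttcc
Rpl27a had the highest mean percentile of the members with a peak in all 6 lists and Rpl39l had no peak, and both held the ETS letters.

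Over all members, pyrimidine tracts at the start and ETS letters in the promoter were more frequent than over all genes. A run of at least 7 pyrimidines within 5 bases of the principal start was found at 29 of 82 members (35.4%), against 13.0% of all protein-coding genes, 12.4% of those with a peak in all 6 lists and 11.5% of the mitochondrial ribosomal protein genes. A C at the start followed by at least 4 pyrimidines was found at 12 members (14.6%) and 2.15% of all genes. Among 15 other genes known for TOP mRNAs, 6 (40%) had the run and 2 (13.3%) had the C followed by pyrimidines, so these features were not particular to the members. Motif letters were searched on both strands from 250 bases before to 50 bases after the start. ETS letters (CCGGAAG) were present at 27 members (32.9%), 37.2% of mitochondrial ribosomal protein genes, 19.7% of genes with a peak in all 6 lists and 11.2% of all genes. YY1 letters (AAGATGG) were present at 9 members (11.0%) and 6.51% of all genes. The GC box (GGGCGG) was present at 42 members (51.2%), against 64.7% of genes with a peak in all 6 lists and 45.3% of all genes. The CCAAT letters were present at 24 members (29.3%) and 38.1% of all genes, and TATAAA at 8 members (9.76%) and 13.2%. The pyrimidine run was found at 33.9% of the 56 members with a peak in all 6 lists and at 38.5% of the other 26, and the ETS letters at 33.9% and 30.8%. A C followed by at least 4 pyrimidines was found at 6 of the 56 (10.7%) and 6 of the 26 (23.1%), and the GC box at 55.4% and 42.3%. None of these differences was tested. Starts came from the annotation and may differ from the starts used in liver.

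**Figure D4:**
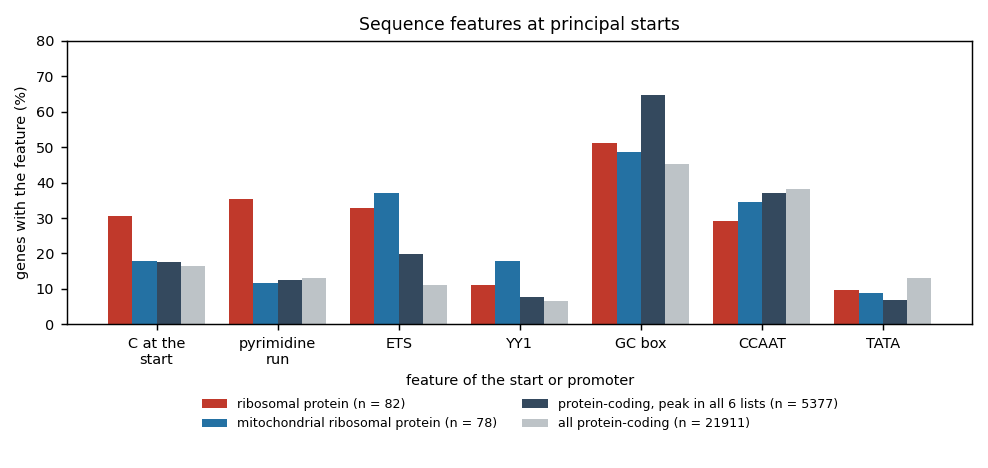
Share of genes (%, y axis) with each sequence feature (x axis) at the principal start, for ribosomal protein genes, mitochondrial ribosomal protein genes, protein-coding genes with a peak in all 6 lists and all protein-coding genes. The pyrimidine run is at least 7 bases within 5 bases of the start, and the named motifs were searched from 250 bases before to 50 after it. The pyrimidine run stood at 35.4% in ribosomal protein genes and 13.0% in all genes.

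In strength the median member lay below the median gene with a peak in all 6 lists in 5 of the 6 lists. Over the 57 members with a peak in all 6 lists at the gene-record start, the median percentile of the strongest peak was 76.4 in B6 replicate 1, 51.0 in B6 replicate 2, 70.5 and 77.4 in MSM, 71.5 in F1 BM and 67.8 in F1 MB. Medians over all 5341 genes with a peak in all 6 lists were 84.7, 68.0, 77.6, 77.0, 76.5 and 71.4. Members were lower in every list but MSM replicate 2, where both medians were close. Their median covered length was 1295, 580, 736, 875, 1030 and 759 bp, beside 1405, 686, 936, 941, 1066 and 780 bp for all genes.

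The 57 members with a peak in all 6 lists differed widely among themselves. Rpl27a stood highest, with percentiles of 95.9 and 96.0 in B6, 91.9 and 95.2 in MSM, 81.0 in F1 BM and 78.1 in F1 MB. Rpl7, Rpsa, Rps18 and Rpl19 followed with mean percentiles over the 6 lists of 84.5, 83.9, 83.5 and 82.6, and their ranges over the lists overlapped those of Rpl27a and of each other. At the low end of these 57 stood Rpl12, with 67.5 and 30.8 in B6, 29.8 and 32.0 in MSM, 7.5 in F1 BM and 9.9 in F1 MB. Rps25, Rps9, Rpl5, which binds 5S ribosomal RNA and the p53 regulator Mdm2, and Rpl10a had mean percentiles of 30.1, 30.8, 31.6 and 34.2. The percentiles of Rps9 ran from 0.1 in F1 MB to 76.3 in F1 BM, so a low mean did not imply a low value in every list.

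By covered length Rpl7 led, with 2924 and 1322 bp in B6, 2081 and 2005 bp in MSM, 2132 bp in F1 BM and 1727 bp in F1 MB. Its window also holds the start of Rdh10, and a separate peak from -1664 to -1209 bp in B6 replicate 2 lay on that side. Among the next longest, Rps18, Rpl27a and Rps6, the small subunit protein phosphorylated by the S6 kinases, had mean lengths of 1570, 1516 and 1278 bp. Among the 57 members with a peak in all 6 lists, the shortest were Rps24 (mean 371 bp), Rpl5 (466.5 bp), Rpl12 (480 bp), Rps3 (515.5 bp) and Rps20 (533 bp). Rps3, which also takes part in DNA repair, had a single downstream peak whose length varied little, with 504 and 501 bp in B6, 469 and 400 bp in MSM, 586 bp in F1 BM and 633 bp in F1 MB. Rplp0, the stalk base to which Rplp1 and Rplp2 bind, was covered over 895 and 318 bp in B6, 658 and 693 bp in MSM, 645 bp in F1 BM and 504 bp in F1 MB, and Rplp2 over 1368 and 636 bp, 521 and 863 bp, 820 bp and 287 bp.

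The comparison of B6 with MSM asked whether these promoters differ between the strains. The median covered length over all 82 members was 1112 and 422.5 bp in the B6 replicates and 654.5 and 770.5 bp in the MSM replicates, with strain means of 767 ± 488 bp for B6 and 712.5 ± 82.0 bp for MSM (SD, n = 2 each). The difference, MSM minus B6, was -54.75 bp, smaller than the pooled SD of 350 bp. Leaving out B6 replicate 1 gave 290 bp and leaving out B6 replicate 2 gave -399.5 bp. The B6 replicates lay on either side of both MSM replicates. B6 replicate 1 had the longest coverage of the 6 lists at 40 of 57 members, and B6 replicate 2 the shortest at 33. For the 58 members with a peak in all 4 parental lists the median percentile was 76.4 and 51.9 in B6 and 70.4 and 78.1 in MSM, a difference of 10.1 percentile points against a pooled SD of 12.8, which was -4.36 without B6 replicate 2. Over the 5759 genes with a peak in all 4 lists the medians were 83.6 and 66.1 in B6 and 75.8 and 75.4 in MSM, a difference of 0.729 points.

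How many members separated the strains depended on the lists and the scaling. In the deposited lists the shares lay near those of all genes. Covered length was higher in both B6 lists than in both MSM lists at 8 of 58 members (13.8%), against 15.7% of all genes with a peak in all 4 parental lists, and higher in both MSM lists at 1 (1.72%), against 3.59%. By percentile, 8 members (13.8%) were higher in both B6 lists, against 18.3% of all genes, and 11 (19.0%) were higher in both MSM lists, against 13.8%. With 2 mice a strain no exact test of a single gene can go below p = 0.333, so the values of single members are given as descriptions. The counts rested on single libraries, in members and in all genes. Without B6 replicate 2, covered length was higher in B6 at 58 of 68 members (85.3%) and 84.2% of all genes, and without B6 replicate 1 it was higher in both MSM lists at 38 of 58 (65.5%) and 64.2%. Without B6 replicate 2 the percentile was higher in B6 at 32 members (47.1%) and 50.9% of all genes, and without B6 replicate 1 it was higher in MSM at 34 (58.6%) and 47.6%. Without MSM replicate 1, covered length was higher in B6 at 13 of 61 members (21.3%) and 25.8% of all genes and in MSM at 7 (11.5%) and 8.91%. Without MSM replicate 2 it was higher in B6 at 16 of 58 (27.6%) and 26.8% and in MSM at 3 (5.17%) and 8.24%. In the same order, the percentile was higher in B6 at 13 (21.3%) and 15 members (25.9%), against 33.8% and 33.1% of all genes, and in MSM at 23 (37.7%) and 19 (32.8%), against 28.6% and 27.9%. With lists of equal number of peaks, covered length was higher in B6 at 9 of 52 members (17.3%), against 19.3% of all genes, and in MSM at 3 (5.77%, Rpsa among them), against 6.29%. The percentile was then higher in B6 at 7 (13.5%), against 21.1%, and in MSM at 14 (26.9%), against 16.6%. With lists of equal covered length only 20 members had a peak in all 4 parental lists, and the split turned toward MSM. Covered length was then higher in B6 at 1 member, Rpl10 (5%), against 24.2% of all genes, and in MSM at 4, Rpl32, Rps6, Rps28 and Rpsa (20%), against 8.81%. The percentile was higher in B6 at 1, Rpl19 (5%), against 16.1%, and in MSM at 4 (20%, among them Rpl23 and Rpsa), against 16.0%. These members were named after their values were seen. Rpsa was thus higher in both MSM lists by covered length and by percentile under each scaling.

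**Figure D5:**
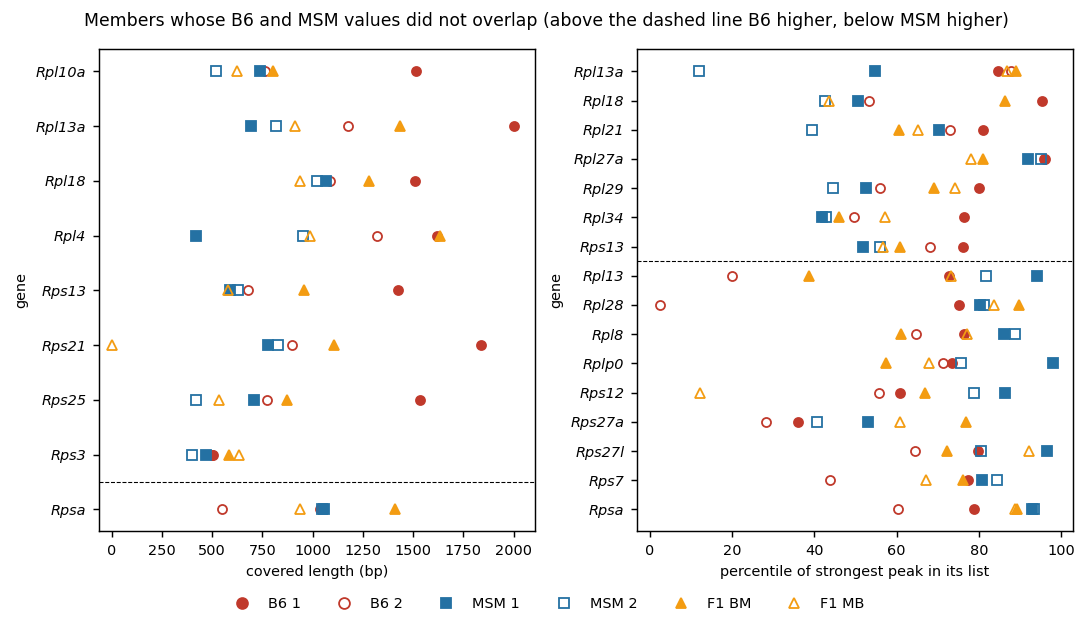
Covered length in bp (left) and percentile of the strongest peak in its list (right) in each of the 6 libraries for members whose B6 and MSM values did not overlap, of which some are not drawn. Circles B6, squares MSM, triangles F1, with filled symbols for the first replicate or F1 BM and open symbols for the second or F1 MB. In many of these members the open B6 circle lies close to the MSM squares.

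The members with higher covered length in B6 were Rpl4, Rpl10a, Rpl13a, Rpl18, Rps3, Rps13, Rps21 and Rps25. When the lists were limited to an equal number of peaks, 6 of them had a peak in all 4 parental lists (Rpl4, Rpl13a, Rpl18, Rps3, Rps13 and Rps21) and all 6 were still higher. At equal covered length none of the 8 had a peak in all 4, so they could not be compared. At Rpl18 the groups also overlapped at the principal start, with 1320 and 608 bp in B6 and 890 and 829 bp in MSM. The widest gap was at Rpl4, host of several small nucleolar RNAs, with 1621 and 1319 bp in B6, 420 and 952 bp in MSM, 1632 bp in F1 BM and 985 bp in F1 MB. Its strain means were 1470 ± 214 bp for B6 and 686 ± 376 bp for MSM (SD, n = 2 each, two-sided exact permutation p = 0.333). Zwilch starts in the opposite direction within 1 kb, so this coverage belongs to a shared window. Rpl13a (chr7:45125558-45128761, minus strand), known for a function in the interferon-γ translational response, followed with 2004 and 1176 bp in B6, 695 and 816 bp in MSM, 1437 bp in F1 BM and 911 bp in F1 MB. Part of the difference lay upstream of the start. Both B6 lists and F1 BM had an upstream peak, from -790 to -328 bp in B6 replicate 2, and B6 replicate 1 had another beyond it, whereas the MSM lists and F1 MB listed only the peak downstream of the start. An upstream peak too weak for the MSM libraries cannot be told from none.

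Rpl13a and Rps13 were also higher in B6 by percentile. Rpl13a stood at 84.7 and 87.7 in B6 and 54.7 and 11.9 in MSM, with 89.1 in F1 BM and 86.8 in F1 MB. Ranks of both hybrids were close to those of B6, whereas the covered length of F1 MB was nearer to the MSM values. Rps13 stood at 76.1 and 68.0 in B6 and 51.8 and 56.0 in MSM, with 60.9 in F1 BM and 56.8 in F1 MB. Gaps in covered length at Rps21 (896 against 827 bp at the nearest values), Rps25 (771 against 708 bp) and Rps13 (676 against 630 bp) were small beside the spread of the B6 replicates.

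Rpsa (chr9:120127689-120132369, plus strand), the laminin receptor homolog of the small subunit, was the member with higher covered length in both MSM lists, and it was also higher there by percentile. Covered length was 1039 and 547 bp in B6, 1058 and 1047 bp in MSM, 1411 bp in F1 BM and 937 bp in F1 MB, so B6 replicate 1 and both MSM replicates were close together and B6 replicate 2 stood apart. The strain means were 793 ± 348 bp for B6 and 1052.5 ± 7.78 bp for MSM (SD, n = 2 each, two-sided exact permutation p = 0.333). The percentile was 78.8 and 60.4 in B6 and 92.9 and 93.5 in MSM, with 89.3 in F1 BM and 88.8 in F1 MB. All 6 lists had 1 peak upstream and 1 downstream of the start, on either side of most of the promoter stretch printed above. Of the percentiles given, 93.5 belonged to the downstream peak and the others to the upstream peak. Upstream, MSM replicate 2 stood at 62.5, below B6 replicate 1, so the strains overlapped there. Downstream, the values were 78.0 and 27.8 in B6 and 82.5 and 93.5 in MSM.

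By percentile the members higher in MSM also included Rpl8, Rpl13, Rpl28, Rplp0, Rps7, Rps12, Rps27a and Rps27l, and the largest gap was at Rps12, with 60.8 and 55.6 in B6, 86.3 and 78.7 in MSM, 66.9 in F1 BM and 12.2 in F1 MB. Rpl8 stood at 76.3 and 64.6 in B6 and 86.2 and 88.7 in MSM. Rpl13 stood at 72.8 and 20.1 in B6 and 94.0 and 81.6 in MSM. Its 20.1 belonged to the only peak of B6 replicate 2, which lay upstream of the start. The other values were those of a downstream peak, so they do not compare the same peak. All values of Rps12 were those of an upstream peak. B6 replicate 2, MSM replicate 1 and F1 MB listed no downstream peak at Rps12. The members higher in B6, apart from Rpl13a and Rps13, included Rpl18, Rpl21, Rpl27a, Rpl29 and Rpl34. At the principal start the values of Rpl18 overlapped, with 82.2 and 43.1 in B6 and 79.3 and 94.8 in MSM. In lists of equal number of peaks, 7 of the 8 members could be compared and 6 were still higher in B6, Rpl13a and Rps13 among them. All 11 could be compared for MSM, and 8 were still higher there. At equal covered length 2 of the 8 could be compared and neither was higher in B6, and of the 11 it was 3, of which 2 were still higher in MSM, Rpsa among them. At Rpl34 the values were 76.4 and 49.8 in B6 and 41.9 and 42.9 in MSM, and at Rpl29 79.9 and 56.0 against 52.6 and 44.5. Of the Rpl29 values, 79.9 belonged to an upstream peak and the others to a downstream peak. In B6 replicate 1 the downstream peak of Rpl29 stood at 60.6, still above both MSM values.

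The hybrids mostly fell inside the range of the 4 parental lists. In F1 BM the covered length lay above every parental list at 11 of 57 members (19.3%) and below every one at 1 (1.75%), and in F1 MB above at 1 (1.75%) and below at 14 (24.6%). Over all 5341 genes with a peak in all 6 lists the shares were 13.5% above and 7.55% below for F1 BM, and for F1 MB 80 genes lay above and 26.8% below. F1 BM had the longer list (20173 peaks) and F1 MB the shorter (13235 peaks), and with 1 mouse per cross the cross and the library cannot be told apart.

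Ribosome components outside the naming rule had peaks as the members did. Fau, which encodes Rps30 as a fusion, was covered over 1392 and 1067 bp in B6, 1082 and 900 bp in MSM, 1348 bp in F1 BM and 917 bp in F1 MB. Rack1, a scaffold on the small subunit, was covered over 1907 and 327 bp, 728 and 1013 bp, 1206 bp and 354 bp in the same order. Rps3a1 was covered in 5 lists and had no peak in MSM replicate 2. Among 15 other genes known for TOP mRNAs, 8 had a peak in all 6 lists, including Eef2 (1379 and 714 bp in B6, 873 and 890 bp in MSM, 791 bp in F1 BM and 775 bp in F1 MB), and among 19 genes of ribosome assembly and RNA polymerase I, 8 did.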

How the data were processed

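Liver H3K9ac chromatin immunoprecipitation libraries were sequenced as 50-bp pairs on a HiSeq2500. Tools named in the submitters' processing notes were Trim Galore, HISAT2, SAMtools and MACS2, with mm10 (GRCm38) as the build, and the study's methods describe Bowtie 2 with a long maximal insert for these libraries. Which aligner made the deposited lists, the versions and the use of the input libraries as control were not given in the sources used here. The 6 input libraries were not analysed here.

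The authors deposited 1 narrowPeak list per library, so replicates were not pooled. The deposited fold enrichment is a linear ratio over the caller's background. The deposited −log10 p and −log10 q values are those of the authors' caller, and the deposited score is the whole part of a multiple of the −log10 q and was not used. The build is the B6 sequence, so MSM reads over differing sequence may be lost. How reads shared with processed copies of these genes were placed was not given in the sources used here.

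Peaks were matched to GENCODE M21 starts with Python 3.11.15, numpy 2.4.6 and pandas 2.3.3, and figures were drawn with matplotlib 3.10.9. Sequences came from the NCBI GRCm38.p6 genome. Groups came from sample titles. Strain differences were counted where the B6 and MSM values of covered length or percentile did not overlap, beside the same share of all genes, and single members had a two-sided exact permutation test. The scripts were tested on simulated peaks. The members, gene lists and named genes were chosen with earlier results of these data known. Named were members lacking a peak in 1 or more lists, the 5 highest and 5 lowest by mean percentile and covered length, up to 5 with the largest strain gap in each direction, Rplp0, Rplp1, Rplp2 and Rpsa, and Fau, Rack1 and Rps3a1. Some genes that the rule named are not reported here. Alternatives were other windows, starts, overlaps and thresholds, lists of equal number or length, left-out libraries and the replicate block.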

Additional observations from a re-analysis of the deposited data

How the results depend on the processing

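Peak lists carry no depth, so a missing peak may be a weak one, and the B6 replicates were the longest and the shortest list. With lists cut to equal covered length, 16 members had a peak in all 6 lists, covered length was higher in both B6 lists at 1 and in both MSM lists at 4, and the percentile was higher in B6 at 1 and in MSM at 4. At a −log10 q of at least 10 the same counts were 12, 0, 2, 1 and 3, the last 4 of 17 members compared (0%, 11.8%, 5.88% and 17.6%, against 16.4%, 4.05%, 18.3% and 11.7% of all genes). In a window of 1 kb, covered length was higher in both MSM lists at 2 of 56 members compared. In one of 500 bp it was so at 2 of 54, and in lists of equal number of peaks at 3 of 52. With a gap of at least 200 bp, covered length was higher in B6 at 2 of 58 members and in MSM at 0. No share of all genes was available for these windows or the gap, so the counts there cannot be set beside a background. Leaving out each parental library in turn gave 57 to 67 members with a peak in all lists, 8 to 58 covered further in B6, 2 to 38 covered further in MSM, 11 to 32 ranked higher in B6 and 15 to 34 ranked higher in MSM, a median length difference of -399.5 to 290 bp and a median percentile difference of -4.36 to 22.3, and the sign of each median difference thus turned with the library left out. With lists of equal covered length the median length difference was 284.75 bp and the median percentile difference 20.5, and with lists of equal number of peaks the length difference was -126.75 bp. Under the replicate block, which asked for the same sign in both same-numbered pairs, 58 members were compared. Of these, 11 were higher in B6 and 2 in MSM by covered length, and 12 and 15 by percentile. No share of all genes was available for the block, so its counts cannot be set beside a background. The titles number the mice without pairing them across strains. The other counts stayed within 1.5 times and every median except the -4.36 moved by less than the pooled SD. The count of members with a peak in both B6 lists and neither MSM list was added after the data were seen. With all 4 parental libraries kept it ranged from 0 to 2, and the reverse count from 0 to 3. With 1 parental library left out the counts ranged from 1 to 4 and from 0 to 10. The 10 arose without B6 replicate 1, where only B6 replicate 2 had to lack a peak. The cause of these changes was not tested.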

Other observations

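Ribosomal protein genes have left many processed copies in the mouse genome, and these copies carried few peaks. Of 294 annotated -ps pseudogenes, 11 (3.74%) had a peak within 2 kb of their start in any list. Of the 272 of them with no protein-coding start within 4 kb, 6 (2.21%) did. Among 21911 protein-coding genes, 11657 had no peak in any list. How reads shared between genes and copies were placed was not given, so a missing peak at a copy cannot be told from reads not placed there. The 6 -ps symbols annotated as protein-coding had none in any list.

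Small nucleolar RNAs, which guide the modification of ribosomal RNA, were annotated within 29 of the 82 members (56 in all). In Rpl13a, host of Snord32a, Snord33, Snord34 and Snord35a, and in Rpl4, host of Snord16a, the window of the host start held a peak in all 6 lists. So did 69.5% of all members, and the share among the 29 hosts was not counted.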
